A study of Mus musculus with 16 samples.

Results

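Loss of LSD1 was measured in the soleus (Sol) of mice given dexamethasone (Dex), a synthetic glucocorticoid. The comparison used 8 of the 16 libraries in the series, chosen by their labels: 5 LSD1-mKO Sol and 3 WT Sol. The other 8 libraries came from the gastrocnemius (Gas). The Gas libraries were used only where the muscles were compared, and in an alternative fit of all 16 libraries that tested the change in Sol. LSD1-mKO mice carried Lsd1 flox/flox with the ACTA1-CreERT2 transgene, in which the promoter of a skeletal muscle actin gene drives a Cre recombinase that tamoxifen switches on, so that the deletion falls in differentiating and differentiated muscle cells and spares other resident cells. WT mice carried floxed *Lsd1* without CreERT2, so the transgene and the deletion cannot be told apart. All were C57BL/6 males of 8 weeks that received tamoxifen at 75 mg/kg for 5 days and Dex at 1 mg/kg for 7 days. No Sol library without Dex was analysed here, so every value describes the genotype under Dex and none describes the response to Dex.

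LSD1, also named KDM1A, removes methyl groups from histone H3 lysine 4 and other sites, usually within repressor complexes that hold RCOR and HDAC proteins. The soleus is a postural muscle built largely of slow type I fibers, which express *Myh7*, and of oxidative fast fibers, which express *Myh2* and *Myh1*. Glucocorticoids act through a nuclear receptor and drive protein breakdown mainly in fast muscles. Innervated fibers confine acetylcholine receptors to the synapse, and denervated or developing fibers express their genes along the whole fiber.

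The measurement was poly(A) RNA sequencing, given as raw read counts per gene and expressed here as CPM (the reads of a gene scaled to a common library total) after scaling for library composition. The Sol libraries held 13917962 to 24576377 reads assigned to genes, and 13342 genes had enough reads to be tested. The first principal component held 37.7% of the variance and placed the WT libraries at 16.3 to 43.6 and the LSD1-mKO libraries at -45.6 to 7.75. WT replicate 2 stood apart on the second component, at -39.5 against -14.7 to 27.2 for the other libraries, and had the highest mean level of 50 ribosomal protein genes, 7.61 log2 CPM against 6.72 to 7.17. Hemoglobin genes *Hba-a1*, *Hba-a2*, *Hbb-b1* and *Hbb-bs* were listed at 0 in all 8 libraries. Whether this was little blood or reads not assigned to these genes was not tested. To check the label soleus, the reads of 4 myosin heavy chains were compared per kilobase of exon. *Myh7* made up 21.5% to 24.8% in WT, *Myh2* 40.4% to 52.6%, *Myh1* 23.7% to 37.4% and *Myh4*, of glycolytic fibers, at most 0.663%. *Myh1* exceeded *Myh7* in every WT library. The shares in LSD1-mKO were 17.9% to 47.3% for *Myh7*, 41.7% to 57.1% for *Myh2*, 7.83% to 21.4% for *Myh1* and 0.447% to 4.95% for *Myh4*.

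The targeted gene, listed as *Kdm1a* (chr4:136550540-136602723, minus strand, GRCm38), stood at 35.9, 37.7 and 35.3 CPM in the WT libraries. It stood at 11.8, 9.60, 12.9, 9.76 and 13.4 CPM in the LSD1-mKO libraries. The groups did not overlap, and the level fell by 1.66 ± 0.14 on the log2 scale (SE; edgeR adjusted p = 0.000574), which left 11.5 ± 1.75 CPM (SD, n = 5) against 36.3 ± 1.25 CPM (SD, n = 3). In bulk tissue, fewer cells of a type and less RNA per cell cannot be told apart. Reads counted for *Esr1*, the estrogen receptor gene, rose 39.2-fold, from 9.79 to 12.8 CPM in WT to 320 to 583 CPM in LSD1-mKO (edgeR adjusted p = 2.71e-06). CreERT2 is a fusion of Cre with the hormone-binding part of an estrogen receptor. Reads of the transgene and of the mouse gene were not separated in the counts.

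Across all genes, 129 of 13342 changed at an adjusted p under 0.05, which is 0.967% of those tested. Of these, 105 were higher in LSD1-mKO (0.787%) and 24 were lower (0.18%). The median size of the change was 1.41 on the log2 scale among the higher genes and 1.63 among the lower ones, while the median over all genes tested was -0.01. The libraries of the genotypes were fully separated in all 129, which was so for 11.1% of all genes tested. The called genes that were in no pathway list numbered 114, and the other 15 fell in 10 of the 25 lists.

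**Figure D1:**
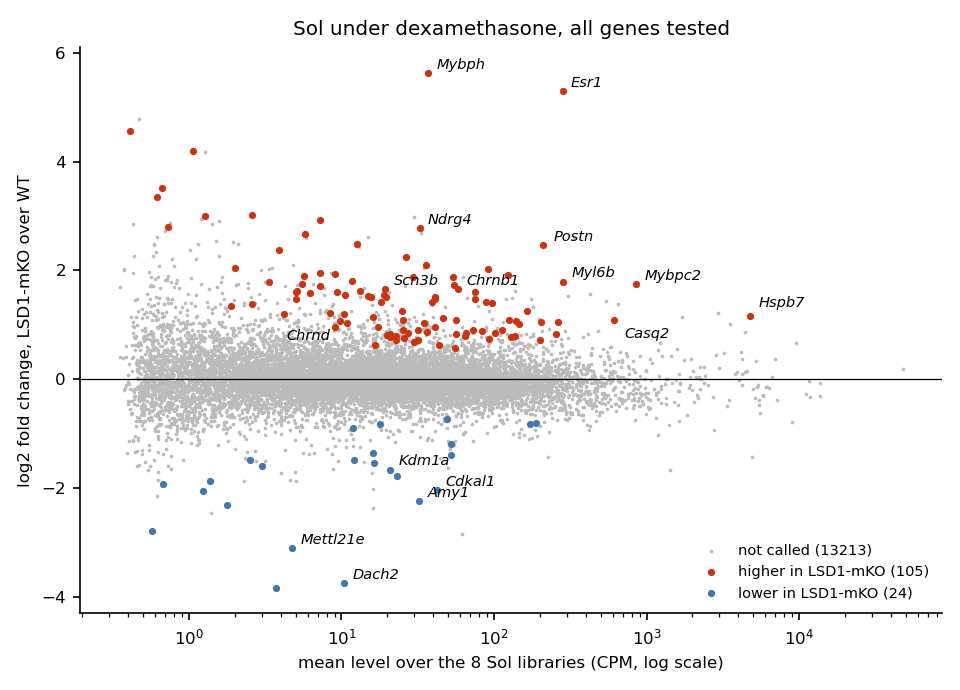
Each point is 1 of the 13342 genes tested in Sol, with its mean level over the 8 libraries in CPM on a log axis and its log2 fold change of LSD1-mKO over WT. Red points are the 105 genes called higher and blue points the 24 called lower. The largest called increases were *Mybph* and *Esr1*, and *Dach2* lay among the deepest decreases.

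The count of calls moved with the libraries used. Without WT replicate 1, 2 or 3, 13, 23 and 11 genes passed, and without LSD1-mKO replicate 1, 2, 3, 4 or 5, 108, 35, 67, 143 and 228 passed. In all 8 of those fits 7 genes passed: *Kdm1a*, *Esr1*, *Chrnb1*, *Scn3b*, *Ces5a*, *Arsg* and *Ccdc136*. No called gene changed sign when any library was left out. That outcome was all but fixed, because the libraries of the genotypes were fully separated in all 129, and it says nothing on stability. The LSD1-mKO libraries were unequal along the 129 genes. Replicate 1 lay farthest from WT in 74 genes and replicate 5 lay nearest in 56, with replicates 2, 3 and 4 farthest in 24, 19 and 7.

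**Figure D2:**
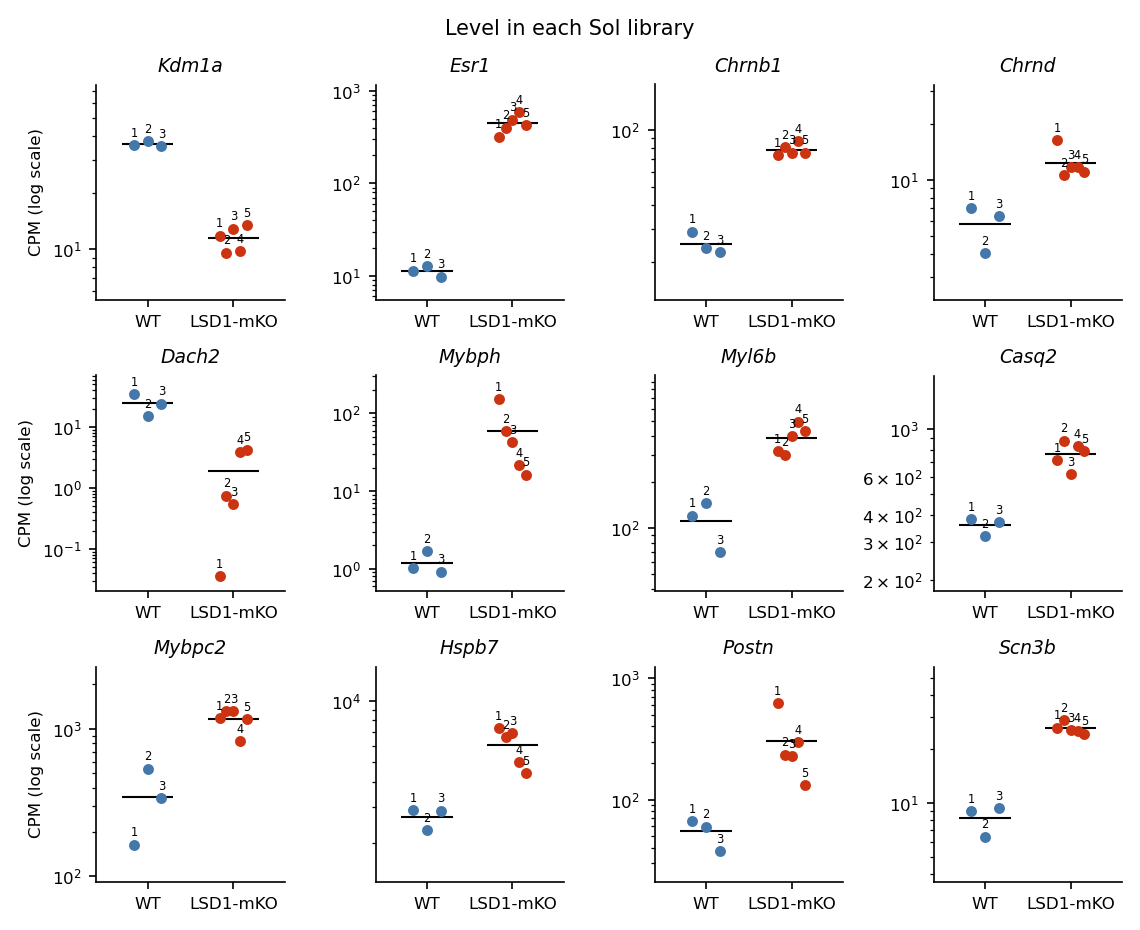
The level of 12 genes in each Sol library is plotted in CPM on log axes, with the replicate number beside each point and a bar at the group mean. WT points (blue, n = 3) and LSD1-mKO points (red, n = 5) do not overlap in any of the 12, and *Mybph* and *Dach2* spread the most within LSD1-mKO.

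Genes of the neuromuscular synapse and of the response to denervation were higher on balance. Of 27 tested, 3 rose and 1 fell (14.8%, against 0.967% of all genes), 22 had a log2 fold change above 0, and their median was 0.50 against -0.01 for all genes. That median stayed between 0.38 and 0.54 when any library was left out. Like all lists here, this one was written with earlier results of these data known, so its share of calls is a description. Schwann cell markers, the glia of the nerve terminal, summed to 116 to 278 CPM in WT and 162 to 248 CPM in LSD1-mKO, and none of 8 tested was called. The part of these cells in the result was not tested.

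*Chrnb1* (chr11:69784036-69795943), the beta subunit of the muscle acetylcholine receptor, was at 28.8, 23.5 and 22.5 CPM in WT and at 73.3, 80.8, 75.7, 86.9 and 75.7 CPM in LSD1-mKO. All 5 LSD1-mKO libraries lay within a narrow band well above WT, and the gene rose 3.15-fold (log2 1.65 ± 0.14 SE; edgeR adjusted p = 0.000564). *Chrnd*, the delta subunit, was at 7.02, 4.02 and 6.36 CPM in WT and 16.3, 10.6, 11.7, 11.7 and 11.1 CPM in LSD1-mKO. It rose 2.11-fold (log2 1.07 ± 0.22 SE; edgeR adjusted p = 0.049), and was no longer called with RLE scaling or with all 16 libraries in one fit. *Chrnd* had a log2 fold change of 0.88 to 1.25 with 1 library left out, and lost its call without WT replicates 1, 2 or 3 or LSD1-mKO replicates 1, 2, 3 or 4. The other subunits were named after their values were seen. *Chrna1*, the alpha subunit, was at 53.8 to 57.6 CPM in WT and 76.7 to 180 CPM in LSD1-mKO, without overlap but with an edgeR adjusted p = 0.0544. *Chrng*, the fetal gamma subunit, was at or under 0.122 CPM in WT and 0.567 to 5.71 CPM in LSD1-mKO (edgeR adjusted p = 0.0891). *Chrne*, the adult epsilon subunit, had a log2 fold change of 0.13 ± 0.18 (edgeR adjusted p = 0.783).

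*Etv4*, an ETS transcription factor, was at 6.86, 7.21 and 5.51 CPM in WT and 17.1, 14.8, 11.4, 12.0 and 11.7 CPM in LSD1-mKO. It rose 2.06-fold (edgeR adjusted p = 0.0323). *Etv4* had a log2 fold change of 0.95 to 1.11 with 1 library left out, and lost its call without WT replicates 1, 2 or 3 or LSD1-mKO replicate 2, or with all 16 libraries in one fit. *Dach2*, a transcriptional corepressor that represses *Myog* and falls in denervated muscle, went the other way. It was at 35.0, 15.2 and 24.1 CPM in WT and at 0.0361, 0.743, 0.542, 3.84 and 4.25 CPM in LSD1-mKO. The level fell by 3.74 ± 0.74 on the log2 scale (edgeR adjusted p = 0.0412). LSD1-mKO replicate 1, the lowest, held under 3 reads, a limit that was 0.122 CPM there before scaling for library composition. *Dach2* had a log2 fold change of -4.26 to -3.38 with 1 library left out, and lost its call without WT replicates 1, 2 or 3 or LSD1-mKO replicates 2 or 3.

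The sequences ahead of the start sites of the called synaptic and developmental sarcomere genes are shown because muscle regulatory factors bind E-boxes, of which acetylcholine receptor promoters are a known case. RefSeq promoters (GRCm38.p6) were held for 4 of the 6 called members of both lists, and *Etv4* and *Chrnd* had no entry. Each line gives the 250 bases before the first listed start, 5′ to 3′ on the gene's strand, with E-boxes (CANNTG, which reads the same on both strands) in capitals.
Chrnb1 (chr11:69795938-69796187, minus strand): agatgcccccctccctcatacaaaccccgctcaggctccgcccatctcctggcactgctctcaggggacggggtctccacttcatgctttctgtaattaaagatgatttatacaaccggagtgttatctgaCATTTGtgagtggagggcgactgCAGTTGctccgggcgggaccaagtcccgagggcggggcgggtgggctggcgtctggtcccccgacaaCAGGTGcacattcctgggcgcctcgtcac
Dach2 (chrX:113297260-113297509, plus strand): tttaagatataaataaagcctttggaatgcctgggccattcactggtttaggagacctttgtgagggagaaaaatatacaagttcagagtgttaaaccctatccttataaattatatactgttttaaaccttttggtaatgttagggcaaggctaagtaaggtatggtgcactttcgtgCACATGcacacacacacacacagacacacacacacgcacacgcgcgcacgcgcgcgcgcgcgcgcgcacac
Myl6b (chr10:128498686-128498935, minus strand): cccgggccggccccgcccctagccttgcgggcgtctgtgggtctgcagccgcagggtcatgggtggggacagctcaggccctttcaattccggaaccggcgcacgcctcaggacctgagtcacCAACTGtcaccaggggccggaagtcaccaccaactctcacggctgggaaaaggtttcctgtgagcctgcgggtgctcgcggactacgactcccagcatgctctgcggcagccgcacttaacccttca
Mybph (chr1:134193198-134193447, plus strand): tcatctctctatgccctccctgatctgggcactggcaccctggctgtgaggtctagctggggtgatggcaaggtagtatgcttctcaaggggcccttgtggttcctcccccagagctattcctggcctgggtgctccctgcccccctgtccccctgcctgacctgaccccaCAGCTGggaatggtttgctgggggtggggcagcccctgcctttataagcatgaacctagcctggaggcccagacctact
*Chrnb1* held 3 E-boxes in this window and the other genes 1 each, and that of *Mybph* was of the form CAGCTG. In windows of 250 bases before to 50 after the start, CAGCTG lay in 26.8% of 82 promoters of genes called higher, in 0 of 17 of genes called lower and in 15.3% of 10133 promoters of all genes tested. The general form CANNTG, which includes CAGCTG, lay in 73.2%, 82.4% and 63.5%. The forkhead motif GTAAACA lay in 2.44% of promoters of higher genes and 2.45% of all. The glucocorticoid receptor motif AGAACA lay in 12.2% of promoters of higher genes, 23.5% of lower genes and 12.2% of all. These shares describe letters in a window and were not tested.

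Sarcomere genes of developing and cardiac muscle were higher on balance, with 2 of 11 tested rising (18.2%, against 0.787% of all genes), none falling and a median log2 fold change of 0.70. This list too was written with earlier results of these data known, so the share is a description. Of the 11, 10 were above 0. That median was 0.61 to 0.93 when a library was left out. *Mybph*, which encodes myosin binding protein H, a thick filament protein, had the largest increase of all called genes. It was at 1.01, 1.67 and 0.918 CPM in WT and at 153, 59.4, 42.7, 21.4 and 16.2 CPM in LSD1-mKO. The lowest LSD1-mKO library thus stood well above the highest WT library, and replicate 1 was far above the other LSD1-mKO libraries. The log2 fold change was 5.63 ± 0.85 (edgeR adjusted p = 0.0155). *Mybph* had a log2 fold change of 4.90 to 5.92 with 1 library left out, and lost its call without WT replicates 1, 2 or 3. *Mybph* shares exonic bases with *Adora1* on the opposite strand, and the counting did not use strand.

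*Myl6b*, an alkali light chain of slow and embryonic muscle, was at 120, 146 and 69.5 CPM in WT and at 318, 300, 398, 493 and 426 CPM in LSD1-mKO. It rose 3.47-fold (log2 1.79 ± 0.26 SE; edgeR adjusted p = 0.0155). *Myl6b* had a log2 fold change of 1.56 to 2.03 with 1 library left out, and lost its call without WT replicates 1 or 3. In this gene the order of the LSD1-mKO libraries was not that of *Mybph*, and replicate 4 was the highest. Satellite cell markers, the stem cells that re-express developmental genes, summed to 61.9 to 66.0 CPM in WT and 66.7 to 75.2 CPM in LSD1-mKO, with none of 6 called. Their part in the result was not tested.

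Of 14 slow fiber genes 1 rose, *Casq2*, and of 16 fast fiber genes 1 rose, *Mybpc2* (7.14% and 6.25%, against 0.787% of all genes). The medians of the 2 lists were -0.06 and -0.15, and became 0.16 and 0.25 without WT replicate 2. With limma voom, the medians were 0.14 and 0.16, and 4 of the 14 and 5 of the 16 were called, all higher, against 5.47% of all genes called (3.68% higher, 1.79% lower). *Casq2*, the slow and cardiac calsequestrin that stores calcium in the sarcoplasmic reticulum, was at 382, 320 and 371 CPM in WT and 714, 878, 615, 832 and 784 CPM in LSD1-mKO. It rose 2.14-fold with little spread in either group (edgeR adjusted p = 0.0155). *Mybpc2*, the fast form of myosin binding protein C, was at 164, 536 and 340 CPM in WT and 1177, 1325, 1318, 824 and 1158 CPM in LSD1-mKO. It rose 3.35-fold (edgeR adjusted p = 0.0373), and the WT libraries spread widely. *Casq2* had a log2 fold change of 1.02 to 1.17 with 1 library left out, and lost its call without WT replicates 1, 2 or 3. *Mybpc2* had a log2 fold change of 1.42 to 2.20 with 1 library left out, and lost its call without WT replicates 1 or 3 or LSD1-mKO replicates 2 or 3.

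The 4 myosin heavy chains that define fiber types were compared per kilobase of exon within each library. *Myh1*, of type IIX fibers, made up 23.7%, 37.4% and 31.6% of the 4 in WT and 7.83%, 12.5%, 12.5%, 21.4% and 20.0% in LSD1-mKO. *Myh4*, of type IIB fibers, made up 0.111% to 0.663% in WT and 0.447% to 4.95% in LSD1-mKO. The *Myh1* shares did not overlap and the *Myh4* shares did. The level of *Myh1* was 8153 ± 1506 CPM over the 3 WT libraries and 3019 ± 2192 CPM over the 5 LSD1-mKO libraries (SD), and its log2 fold change of -1.43 ± 0.54 did not pass (edgeR adjusted p = 0.238), and *Myh4* had 2.60 ± 0.76 (edgeR adjusted p = 0.134). *Myh7* made up 21.5% to 24.8% in WT and spread from 17.9% to 47.3% in LSD1-mKO, with log2 fold change -0.37 ± 0.21 (edgeR adjusted p = 0.433). *Myh2*, of type IIA fibers, had -0.33 ± 0.42 (edgeR adjusted p = 0.763). LSD1-mKO replicates 1 and 3 held the highest *Myh7* shares, 47.3% and 40.2%.

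**Figure D3:**
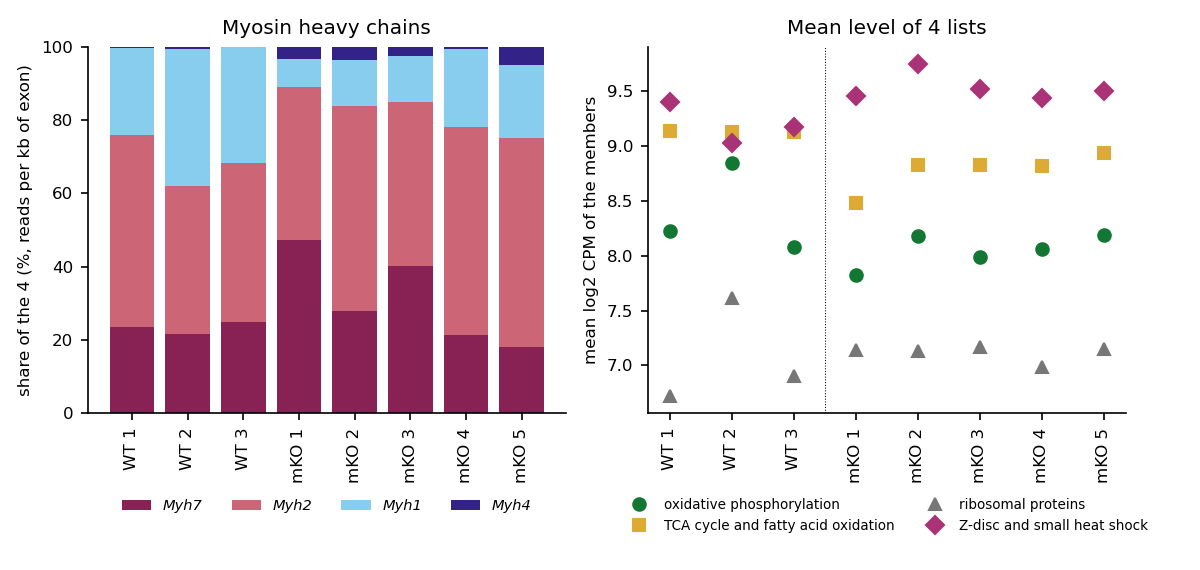
The left panel gives the share of each of 4 myosin heavy chains in their sum, in reads per kilobase of exon, for each WT and LSD1-mKO (mKO) Sol library. The right panel gives the mean log2 CPM of the members of 4 gene lists, where all 5 LSD1-mKO libraries lie below WT for the TCA cycle and fatty acid oxidation, and WT replicate 2 lies above all others for oxidative phosphorylation and ribosomal proteins.

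Genes of mitochondrial metabolism were lower on balance, and none passed the test alone, while 0.967% of all genes did. Of 43 genes of the TCA cycle and fatty acid oxidation, 41 had a log2 fold change below 0, the median was -0.35, and 15 were lower in every LSD1-mKO library than in every WT library, against 5.04% of all genes. The mean level of the list was 9.13 to 9.14 log2 CPM in WT and 8.48 to 8.93 in LSD1-mKO. The median stayed between -0.26 and -0.39 when a library was left out. *Lpl*, the lipoprotein lipase that releases fatty acids for uptake, was at 4033, 3709 and 4143 CPM in WT and at 1241, 1797, 2404, 2332 and 2616 CPM in LSD1-mKO, without overlap (log2 -0.93 ± 0.23; edgeR adjusted p = 0.089). *Pdk4*, the kinase that turns off pyruvate dehydrogenase, was at 5746 to 7468 CPM in WT and 3465 to 6582 CPM in LSD1-mKO (edgeR adjusted p = 0.357). With DESeq2, 8 of the 43 were called, all lower, against 4.54% of all genes called (3.09% higher, 1.45% lower).

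Of 77 genes of oxidative phosphorylation, 76 were below 0 with a median of -0.41, and 12 were lower without overlap, against 5.04% of all genes. That median moved with 1 library. Without WT replicate 2, it was -0.13 with 61 of 77 below 0, and with library quality weights it was -0.10. The 2 members with the highest levels, the ATP synthase subunits *Atp5b* and *Atp5a1*, had log2 fold changes of -0.11 ± 0.17 and -0.38 ± 0.17 (edgeR adjusted p = 0.808 and 0.307). Oxidative regulators had 20 of 25 below 0 and a median of -0.28, which was -0.16 without WT replicate 1 and -0.18 without LSD1-mKO replicate 5. Among them *Perm1*, a regulator of mitochondrial genes, had -0.33 ± 0.22 (edgeR adjusted p = 0.522), *Vegfa*, the vascular growth factor, had -0.01 ± 0.21 (edgeR adjusted p = 0.99), and *Esrrg*, a nuclear receptor of oxidative fibers, had -0.66 ± 0.38 (edgeR adjusted p = 0.444). Adipocyte markers, whose cells share *Lpl*, summed to 611 to 1374 CPM in WT and 484 to 719 CPM in LSD1-mKO. Of 8 tested, 7 were below 0, none was called, and their part in the result was not tested.

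**Figure D4:**
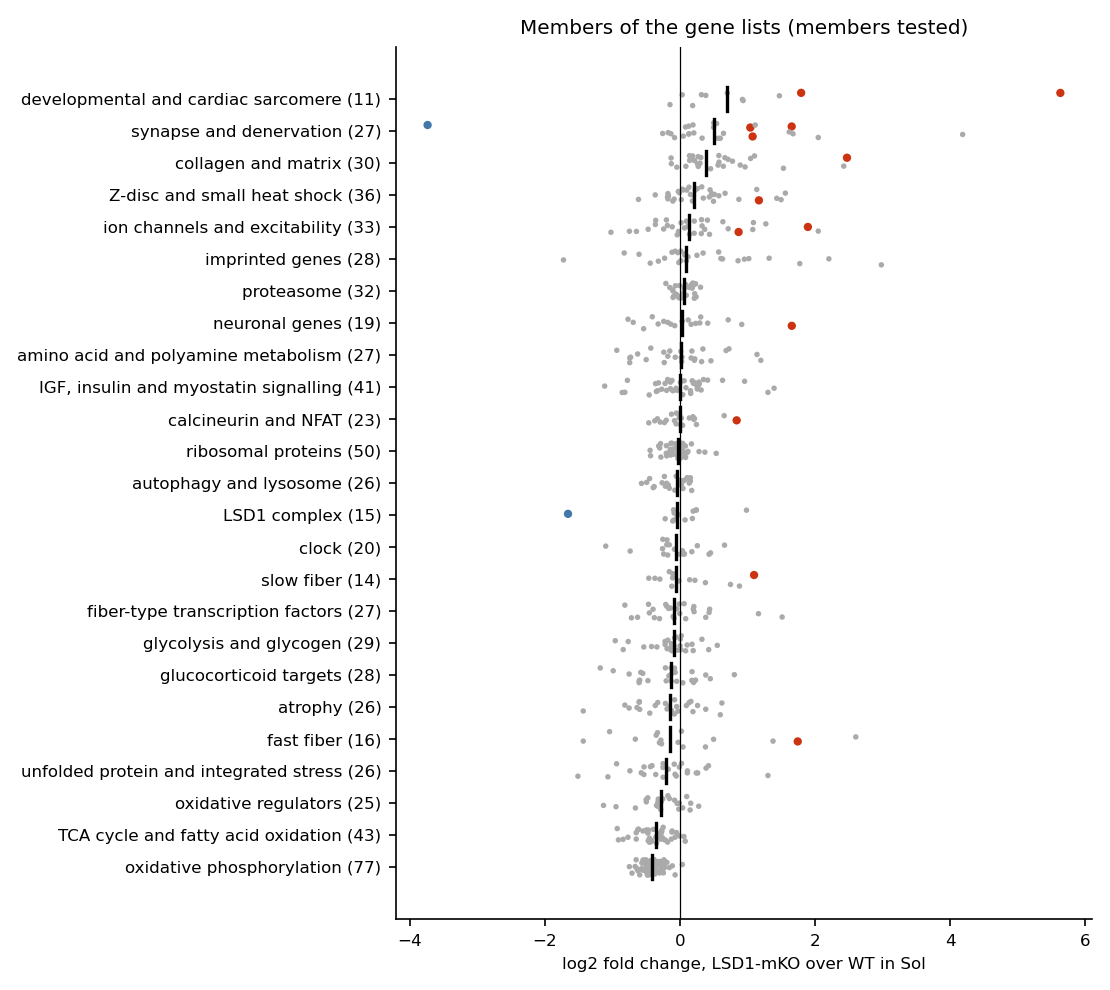
Each point is a member of 1 of the 25 pathway lists, placed by its log2 fold change of LSD1-mKO over WT in Sol, with red for members called higher, blue for members called lower, grey for the rest and a black tick at the list's median. The medians run from -0.41 for oxidative phosphorylation to 0.70 for developmental and cardiac sarcomere genes, and the number of members tested stands after each name.

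Proteins of the Z-disc and small heat shock proteins, which brace and repair the sarcomere, had 1 called member of 36 (2.78%, against 0.967% of all genes). Of these 36, 8 were higher without overlap, against 6.09% of all genes, and the median of the list was 0.21. The median was 0.37 without WT replicate 1 and 0.13 without LSD1-mKO replicate 2. *Hspb7*, the muscle small heat shock protein, was at 2894, 2309 and 2887 CPM in WT and 7354, 6624, 6913, 4983 and 4421 CPM in LSD1-mKO. It rose 2.25-fold (edgeR adjusted p = 0.0394), with replicates 4 and 5 the lowest of LSD1-mKO. *Hspb7* had a log2 fold change of 1.07 to 1.26 with 1 library left out, and lost its call without WT replicates 1, 2 or 3 or LSD1-mKO replicates 2 or 3. With DESeq2, 7 of the 36 were called, all higher, against 3.09% of all genes called higher.

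Among channels and other genes of excitability, 2 of 33 rose (6.06%, against 0.787% of all genes). *Kcnn3*, the SK3 calcium-activated potassium channel, which innervated muscle lacks and denervated muscle expresses, was at 2.08, 1.44 and 2.75 CPM in WT and at 10.1, 7.31, 9.53, 6.45 and 5.77 CPM in LSD1-mKO (3.71-fold; edgeR adjusted p = 0.0155). *Atp1b2*, a beta subunit of the sodium pump, rose 1.82-fold from 23.8 ± 3.03 to 43.4 ± 3.29 CPM (SD; edgeR adjusted p = 0.0156). Of 19 neuronal genes 1 rose (5.26%, against 0.787% of all genes): *Scn3b*, a beta subunit of sodium channels. It was at 8.99, 6.45 and 9.30 CPM in WT and 26.3, 28.9, 25.4, 25.3 and 24.4 CPM in LSD1-mKO, a 3.15-fold increase (edgeR adjusted p = 0.000942). Of 23 genes of calcineurin and calcium signalling 1 rose (4.35%, against 0.787% of all genes). It was *Camk2b*, a calcium and calmodulin dependent kinase subunit, at 1.79-fold from 170 ± 4.12 to 305 ± 20.8 CPM (SD; edgeR adjusted p = 0.0155). *Nfatc1*, the calcineurin target that supports slow fibers, had a log2 fold change of -0.01 ± 0.17 (edgeR adjusted p = 0.994). *Kcnn3* had a log2 fold change of 1.70 to 2.15 with 1 library left out, and lost its call without WT replicates 1 or 2. *Atp1b2* had a log2 fold change of 0.78 to 0.94 with 1 library left out, and lost its call without WT replicates 1 or 3, or with all 16 libraries in one fit. *Camk2b* had a log2 fold change of 0.81 to 0.89 with 1 library left out, and lost its call without WT replicates 1 or 3 or LSD1-mKO replicate 2. *Scn3b* had a log2 fold change of 1.51 to 1.76 with 1 library left out, and kept its call each time.

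Collagen and matrix genes were above 0 in 27 of 30, with 1 called (3.33%, against 0.967% of all genes). The median was 0.38, and 0.15 without LSD1-mKO replicate 1. *Postn*, encoding the matrix protein periostin, was at 66.3, 59.9 and 37.4 CPM in WT and at 623, 235, 227, 297 and 132 CPM in LSD1-mKO. All LSD1-mKO libraries were above WT and replicate 1 was highest (5.55-fold; edgeR adjusted p = 0.0307). *Postn* had a log2 fold change of 2.05 to 2.66 with 1 library left out, and lost its call without WT replicates 1, 2 or 3 or LSD1-mKO replicates 2 or 3. Fibroblast markers, of the cells that make most of the matrix, summed to 2000 to 3123 CPM in WT and 1051 to 2985 CPM in LSD1-mKO, with 6 of 9 above 0 and none called. Tendon markers summed to 238 to 367 CPM in WT and 59.5 to 296 CPM in LSD1-mKO, with 5 of 6 below 0 and none called. The part of these cells in the matrix values was not tested.

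The named increases outside the lists covered diverse functions. *Ndrg4*, of a family of alpha/beta hydrolase fold proteins, was at 7.08, 6.15 and 7.71 CPM in WT and 68.5, 46.4, 45.9, 59.3 and 19.4 CPM in LSD1-mKO (6.85-fold; edgeR adjusted p = 0.0103). *Kcng4*, a silent potassium channel subunit, was at 9.67, 10.7 and 3.24 CPM in WT and 41.2, 47.4, 24.6, 34.0 and 39.8 CPM in LSD1-mKO (4.77-fold; edgeR adjusted p = 0.0156). *Ces5a*, a carboxylesterase, was at 3.20, 1.97 and 4.53 CPM in WT and 19.4, 21.6, 11.7, 21.0 and 17.4 CPM in LSD1-mKO (5.58-fold; edgeR adjusted p = 0.00588). *Rab15*, a small GTPase of endosomes, *Prepl*, a serine hydrolase, *Inpp5j*, an inositol phosphatase, and *Vash2*, a tubulin carboxypeptidase, all had LSD1-mKO replicate 1 as their highest library. They rose 3.78-fold, 4.08-fold, 4.28-fold and 7.64-fold (edgeR adjusted p = 0.0251, 0.0185, 0.0251 and 0.0298). *Ppfia4*, a liprin, *Fhad1*, *Mtus2*, *Ttc39c* and *Csdc2* rose 6.33-fold, 5.20-fold, 8.09-fold, 3.89-fold and 3.82-fold, with edgeR adjusted p from 0.0155 to 0.0431. *Mtus2*, *Fhad1*, *Csdc2*, *Ppfia4*, *Ttc39c* and *Vash2* were low, at or under 4.44 CPM in every WT library. *Ndrg4* and *Ttc39c* had log2 fold changes of 2.63 to 2.98 and 1.73 to 2.07 with 1 library left out, and lost their calls without WT replicates 1, 2 or 3. *Kcng4* had a log2 fold change of 1.90 to 2.52 with 1 library left out, and lost its call without WT replicates 1 or 2. *Ces5a* had a log2 fold change of 2.24 to 2.81 with 1 library left out, and kept its call each time. *Rab15*, *Vash2*, *Ppfia4* and *Mtus2* had log2 fold changes of 1.66 to 2.10, 2.55 to 3.69, 2.32 to 3.16 and 2.69 to 3.32 with 1 library left out, and lost their calls without WT replicates 1, 2 or 3 or LSD1-mKO replicates 2 or 3. *Prepl* and *Inpp5j* had log2 fold changes of 1.75 to 2.21 and 1.85 to 2.47 with 1 library left out, and lost their calls without WT replicates 1, 2 or 3 or LSD1-mKO replicate 2. *Fhad1* had a log2 fold change of 1.96 to 2.97 with 1 library left out, and lost its call without WT replicates 1, 2 or 3 or LSD1-mKO replicates 1, 2 or 3. *Csdc2* had a log2 fold change of 1.77 to 2.25 with 1 library left out, and lost its call without WT replicates 2 or 3. *Prepl* and *Fhad1* were not called with all 16 libraries in one fit.

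Lysosomal hydrolases among the called genes were noticed after the values were seen, and the group was not tested. *Arsg*, a lysosomal sulfatase, was at 2.19, 2.12 and 2.33 CPM in WT and 7.37, 8.24, 6.37, 5.88 and 6.16 CPM in LSD1-mKO (3.06-fold; edgeR adjusted p = 0.00797). *Gusb*, beta-glucuronidase, *Galns*, a galactosamine sulfatase, and *Ctsz*, a cathepsin, rose 2.14-fold, 2.92-fold and 2.17-fold (edgeR adjusted p = 0.0103, 0.0242 and 0.0453). *Arsg* had a log2 fold change of 1.54 to 1.67 with 1 library left out, and kept its call each time. *Gusb* had a log2 fold change of 1.05 to 1.17 with 1 library left out, and lost its call without WT replicate 3, or with all 16 libraries in one fit. *Galns* and *Ctsz* had log2 fold changes of 1.43 to 1.66 and 1.00 to 1.28 with 1 library left out, and lost their calls without WT replicates 1, 2 or 3 or LSD1-mKO replicates 2 or 3. The separate list of 26 autophagy and lysosome genes had no called member and a median of -0.04 (-0.07 without LSD1-mKO replicate 2 and -0.01 without LSD1-mKO replicate 1), with *Ctsd* at 0.04 ± 0.18 and *Sqstm1* at 0.10 ± 0.18 on the log2 scale (edgeR adjusted p = 0.941 and 0.842). With limma voom, 4 of the 26 were called, all lower, against 1.79% of all genes called lower.

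The named decreases were led by *4933415F23Rik*, *Dach2* and *Mettl21e*. *4933415F23Rik* was at 9.50, 11.4 and 5.94 CPM in WT and 0.108, 0.557, 0.0904, 1.87 and 0.490 CPM in LSD1-mKO (log2 -3.83 ± 0.62; edgeR adjusted p = 0.0187). *Mettl21e*, a lysine methyltransferase of skeletal muscle, was at 11.7, 14.0 and 6.00 CPM in WT and 0.289, 1.18, 0.181, 2.44 and 2.18 CPM in LSD1-mKO (log2 -3.10 ± 0.59; edgeR adjusted p = 0.0373). For both, replicates 1 and 3 held the lowest values. Those of *4933415F23Rik* lay at about or under the 3-read limits of these libraries, which were 0.122 and 0.136 CPM before scaling for library composition. These 2 values stood on so few reads that their size is uncertain. The same 2 replicates held the highest *Myh7* shares, which was seen after the values and was not tested. *4933415F23Rik* had a log2 fold change of -4.93 to -3.50 with 1 library left out, and lost its call without WT replicates 1, 2 or 3 or LSD1-mKO replicate 2. *Mettl21e* had a log2 fold change of -3.52 to -2.80 with 1 library left out, and lost its call without WT replicates 1, 2 or 3 or LSD1-mKO replicates 2 or 3.

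*Amy1*, an amylase, was nearly equal in the WT libraries, at 61.4, 64.3 and 65.0 CPM, and was at 3.83, 10.5, 14.5, 16.8 and 22.2 CPM in LSD1-mKO. It fell by 2.23 ± 0.38 on the log2 scale (edgeR adjusted p = 0.0252), but shares exons with *Rnpc3* and has near-identical amylase copies, so its counts are uncertain. *Ctxn3*, a cortexin, was also even in WT, at 42.1, 41.2 and 40.6 CPM, against 4.92, 11.0, 13.8, 11.4 and 19.3 CPM (log2 -1.78 ± 0.31; edgeR adjusted p = 0.0254). *Cdkal1*, a tRNA methylthiotransferase, was at 40.2, 103 and 97.1 CPM in WT and 13.8 to 26.9 CPM in LSD1-mKO (log2 -2.04 ± 0.29; edgeR adjusted p = 0.0155). *Slc40a1*, the iron exporter ferroportin, fell 2.91-fold from 27.8 ± 11.6 to 9.58 ± 3.09 CPM (SD; edgeR adjusted p = 0.0373). *Hnmt*, histamine methyltransferase, fell 3.02-fold (edgeR adjusted p = 0.0392), and *BC048679* fell 2.79-fold (edgeR adjusted p = 0.0356). *Amy1*, *Ctxn3* and *Slc40a1* had log2 fold changes of -2.48 to -1.97, -2.01 to -1.56 and -1.71 to -1.13 with 1 library left out, and lost their calls without WT replicates 1, 2 or 3 or LSD1-mKO replicates 2 or 3. *Cdkal1* had a log2 fold change of -2.35 to -1.82 with 1 library left out, and lost its call without WT replicates 2 or 3. *Hnmt* had a log2 fold change of -1.82 to -1.42 with 1 library left out, and lost its call without WT replicates 1, 2 or 3 or LSD1-mKO replicates 1, 2, 3 or 4. *BC048679* had a log2 fold change of -1.73 to -1.28 with 1 library left out, and lost its call without WT replicates 1, 2 or 3 or LSD1-mKO replicates 2, 3 or 4. *Ctxn3* and *Slc40a1* were not called with all 16 libraries in one fit.

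The lists closest to the action of Dex held no called gene, while 0.967% of all genes were called. Lists this short would seldom hold a call at that share, so the lack of calls says little. *Hspb7*, which the study counts among key mediators of atrophy, was called higher but stood in the Z-disc and small heat shock list. Of 26 atrophy genes, 18 were below 0 with a median of -0.14, which was -0.01 without WT replicate 2 and -0.28 without WT replicate 1. *Trim63*, the ubiquitin ligase MuRF1, was at 232, 810 and 189 CPM in WT and 244, 230, 447, 171 and 225 CPM in LSD1-mKO (log2 -0.64 ± 0.44; edgeR adjusted p = 0.534). *Fbxo32*, the ubiquitin ligase atrogin-1, was at 389, 665 and 579 CPM in WT and 342, 351, 933, 547 and 812 CPM in LSD1-mKO (log2 0.13 ± 0.34; edgeR adjusted p = 0.895). Both overlapped widely, and WT replicate 2 held the highest *Trim63*. *Nedd4*, also a ubiquitin ligase, had a log2 fold change of 0.16 ± 0.20 (edgeR adjusted p = 0.764). Of 28 glucocorticoid targets, 20 were below 0 with a median of -0.13, which was 0.07 without WT replicate 2. *Glul*, glutamine synthetase, had -0.07 ± 0.22 (edgeR adjusted p = 0.916).

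Other regulators likewise gave no call. Of 27 fiber-type transcription factors the median was -0.09 (0.08 without WT replicate 1), with *Tead1* at -0.14 ± 0.23 and *Lmcd1* at -0.00 ± 0.23 (edgeR adjusted p = 0.823 and 0.996), and *Pitx1* at -0.72 ± 0.40 (edgeR adjusted p = 0.422). *Foxk1*, a forkhead repressor of autophagy and atrophy genes, had 0.20 ± 0.20 (edgeR adjusted p = 0.682). Of 15 genes of the LSD1 complex, *Kdm1a* alone was called and the median was -0.04 (0.03 without WT replicate 3). Of 41 genes of IGF, insulin and myostatin signalling the median was 0.00 (-0.06 without WT replicate 2 and 0.07 without WT replicate 1), with *Insr* at 0.20 ± 0.22 and *Pik3ca* at 0.06 ± 0.17 (edgeR adjusted p = 0.719 and 0.907). Of 28 imprinted genes, 18 were above 0, the median was 0.09 (0.05 without LSD1-mKO replicate 1 and 0.15 without WT replicate 3) and 5 were higher without overlap, against 6.09% of all genes. *H19*, an imprinted noncoding RNA of growing muscle, was at 2346, 1612 and 2485 CPM in WT and 5352, 5799, 4083, 3157 and 3361 CPM in LSD1-mKO, without overlap (log2 1.02 ± 0.26; edgeR adjusted p = 0.0947), while *Gnas* had -0.02 ± 0.16 (edgeR adjusted p = 0.976).

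Glycolysis and glycogen genes had a median of -0.09 over 29, which was 0.09 without WT replicate 2, with the enzymes *Aldoa* at -0.14 ± 0.22 and *Eno3* at 0.00 ± 0.19 (edgeR adjusted p = 0.816 and 0.997). Amino acid and polyamine genes had a median of 0.02 over 27, which was -0.08 without LSD1-mKO replicate 3. The aspartate transaminases *Got1*, of the cytosol, and *Got2*, of mitochondria, had -0.74 ± 0.20 and 0.34 ± 0.14 (edgeR adjusted p = 0.111 and 0.273). Genes of the unfolded protein and integrated stress responses had a median of -0.21 over 26, which was -0.10 without LSD1-mKO replicate 5, with the chaperones *Hspa8* at 0.24 ± 0.16 and *Hspa5* at -0.58 ± 0.26 (edgeR adjusted p = 0.517 and 0.316). Proteasome genes had a median of 0.05 over 32, which was 0.22 without WT replicate 2 with 28 of 32 above 0 and 0.01 without WT replicate 3, with *Psmd2* at 0.22 ± 0.14 and *Psmc3* at 0.17 ± 0.15 (edgeR adjusted p = 0.515 and 0.645). Clock genes had a median of -0.06 over 20, which was -0.11 without LSD1-mKO replicate 5 and -0.0022 without WT replicate 3, with *Tef* at 0.26 ± 0.25 and *Nr1d1*, the repressor REV-ERB alpha, at -1.10 ± 0.31 (edgeR adjusted p = 0.681 and 0.125). Ribosomal protein genes had a median of -0.03 over 50, which was 0.25 without WT replicate 2 with 49 of 50 above 0, -0.17 without WT replicate 1 and 0.19 with limma voom, with *Rplp0* at 0.17 ± 0.17 and *Rpl4* at 0.04 ± 0.15 (edgeR adjusted p = 0.698 and 0.943).

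No marker list of another cell type held a called gene, while 0.967% of all genes were called. Macrophage and lymphocyte markers summed to 156 to 222 CPM in WT and 125 to 312 CPM in LSD1-mKO. Endothelial markers summed to 610 to 722 and 498 to 674 CPM, smooth muscle markers to 543 to 595 and 569 to 641 CPM, and blood markers to 23.9 to 25.6 and 13.6 to 29.0 CPM. Apart from satellite cells, these sums overlapped between the genotypes. Slow muscle markers summed to 29306 to 34803 CPM in WT and 24805 to 32808 CPM in LSD1-mKO, and fast muscle markers to 24714 to 39994 and 16897 to 32211 CPM.

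Whether the genotype acted differently in Sol and Gas was tested as the interaction over all 16 libraries. None of 13749 genes passed (0% called, edgeR, smallest adjusted p = 0.164), while DESeq2 called 21. An unadjusted edgeR p under 0.05 was held by 671 genes, no more than chance alone gives at that threshold. Of the 101 genes called higher in Sol that were also tested in Gas, 95 had a log2 fold change above 0 there with a median of 0.75, and of 22 called lower, 19 were below 0 with a median of -0.62. Over all genes tested in both muscles, 66.4% had the same sign. The labels do not say whether Sol and Gas came from the same mice, so these shares are descriptions. In Gas, *Myl6b* had 1.90 ± 0.18 on the log2 scale (edgeR adjusted p = 0.00398), close to its value in Sol. *Dach2* had -3.91 ± 0.55 there, which did not pass (edgeR adjusted p = 0.0551). Of the 12843 genes tested in both muscles, only 3 were called in Gas by the same test. *Mybph* had 0.29 ± 0.67 in Gas, and its difference of 5.35 ± 1.14 between the muscles did not pass (edgeR adjusted p = 0.341). The differences of *Ndrg4* (2.35 ± 0.49), *Cdkal1* (-1.89 ± 0.50) and *Scn3b* (1.18 ± 0.35) did not pass either (edgeR adjusted p = 0.341, 0.611 and 0.667). With DESeq2, *Mybph* and *Ndrg4* were among the 21 genes called for this difference, and *Cdkal1* and *Scn3b* were not.

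**Figure D5:**
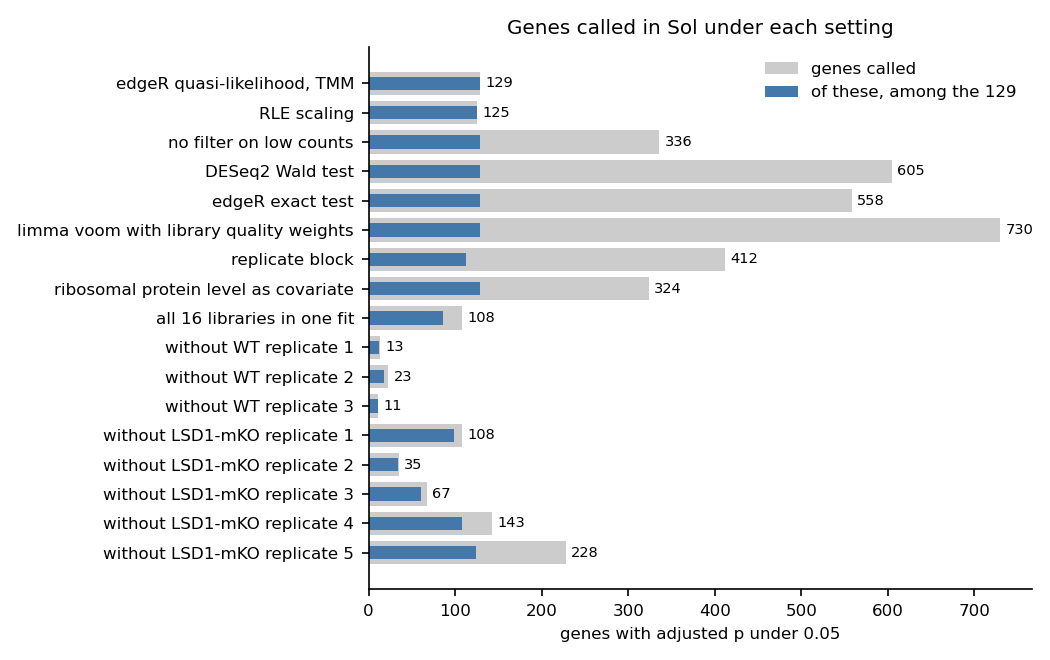
Bars give the number of genes with an adjusted p under 0.05 in Sol under each setting, and the inner blue bars give how many of them were among the 129. Leaving out any WT library left 11 to 23 genes, while DESeq2, the edgeR exact test and limma voom called 605, 558 and 730 genes.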

How the data were processed

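Poly(A) RNA of soleus (and gastrocnemius) was sequenced as 75 bp single-end reads. Per the labels and file headers, the authors aligned reads to mm10 with STAR and counted them over exons with featureCounts 1.5.2 without strand, and deposited raw read counts per gene. Tables of the authors' own fold changes and p-values were not used. Counts of the 3 WT Sol and 5 LSD1-mKO Sol libraries (13917962 to 24576377 reads) were filtered with filterByExpr (minimum count 10), scaled by TMM and tested with the edgeR quasi-likelihood test (edgeR 4.0.16, R 4.3.3, two-sided, Benjamini-Hochberg over all 13342 genes, adjusted p under 0.05). Fold changes are LSD1-mKO over WT with standard errors. Genotype by muscle was tested as the interaction over 16 libraries. Alternatives were RLE scaling, no filter, DESeq2 1.42.0, the edgeR exact test, limma 3.58.1 voom with quality weights, a replicate block, a ribosomal protein covariate, all libraries in one fit, and leaving out each library.

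The comparison, the gene lists and the rule for named genes were chosen with earlier results of these data known. Named were *Kdm1a* and *Esr1*, called list members, the 15 largest increases and 10 largest decreases (called, averaging 50 reads or more, genotypes not overlapping), the 2 highest members of pathway lists without a call, and 6 regulators measured by the study, which are given as values. Lists were described by counts and medians, without a set test. Each library is labelled as a separate sample of its group, and p-values measure the spread between these samples. No pair of libraries of one group agreed within sampling noise (chi-square per gene of at least 17.3). The limit of 3 reads was 0.122 to 0.216 CPM per library, taken on total reads before TMM scaling. It is therefore approximate for the scaled levels, and levels near or under it were not reliably detectable. It covers counting error only. Gene positions came from GENCODE vM21 (GRCm38), promoters from RefSeq (GRCm38.p6). Of the 129 called genes, 34 share exonic bases with a gene on the opposite strand, from which unstranded counts cannot be told apart. The scripts were tested on simulated counts with the same spread for every gene and no deviant library. That test checks the code and not the calls made here.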

Additional observations from a re-analysis of the deposited data

Results flagged for a closer look

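In 118 groups of 5 LSD1-mKO values, 10 had a single library whose gap to the rest was large against the range of the group (Dixon's test), where chance gives about 5.9, or 1 in 20. Replicate 1 was the high library for *Chrng*, at 5.71 CPM against 0.567 to 1.85, and for *Chrnd*, at 16.3 CPM against 10.6 to 11.7. It was the low library for the mean level of the TCA cycle and fatty acid oxidation list, at 8.48 log2 CPM against 8.81 to 8.93. Replicate 2 was high for the Z-disc and small heat shock list, at 9.75 log2 CPM against 9.44 to 9.52, and for *Lmcd1*, at 795 CPM against 471 to 555. Replicate 3 was high for *Trim63*, at 447 CPM against 171 to 244, for *Insr*, at 276 CPM against 201 to 216, and for *Nfatc1*, at 49.5 CPM against 36.2 to 39.9. Replicate 4 was high for *4933415F23Rik*, at 1.87 CPM against 0.0904 to 0.557, and low for the ribosomal protein list, at 6.99 log2 CPM against 7.13 to 7.17.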

How the results depend on the processing

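The 129 calls (105 higher, 24 lower) became 125 with RLE scaling and 108 with all 16 libraries in one fit. They became 336 (266 higher, 70 lower) without the filter, 605 (412, 193) with DESeq2, 558 (385, 173) with the edgeR exact test, 730 (491, 239) with limma voom and 324 (222, 102) with the ribosomal covariate. With 1 library left out they ranged from 11 to 228 (10 to 181 higher, 1 to 47 lower). All 129 were among the calls without the filter and with DESeq2, the exact test, voom and the covariate, and 81 passed in all 8 settings that used every library. The cause of these differences was not tested.

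Replicate numbers did not pair the libraries: deviations of same-numbered libraries correlated at 0.09, -0.01 and 0.13, and not every library correlated best with its own number. A replicate block gave 412 calls (288 higher, 124 lower), 112 of them among the 129, and *Casq2*, *Gpx3* and *Aldoart2* were not called in it. The difference between Sol and Gas gave 0 calls, 21 with DESeq2 and 0 to 1 with 1 library left out. It gave 1 call (*Mybph*) with a different block, which took Sol and Gas libraries of the same genotype and number as 1 mouse. The labels do not say that they were.

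Some uncalled genes near 0 changed sign. With voom the log2 fold changes were 0.0567 for *Aldoa*, -0.0509 for *Ctsd*, -0.0537 for *Fbxo32*, -0.00417 for *Foxk1*, 0.0196 for *Gnas*, 0.0814 for *Lmcd1*, -0.0245 for *Nedd4*, -0.0276 for *Sqstm1*, -0.0455 for *Tef*, 0.11 for *Trim63* and 0.10 for *Vegfa*. With the replicate block they were -0.14 for *Fbxo32*, 0.0572 for *Lmcd1*, 0.0335 for *Nfatc1* and 0.15 for *Vegfa*. With the ribosomal covariate they were -0.00253 for *Eno3*, 0.0610 for *Lmcd1*, 0.0560 for *Nfatc1* and 0.0200 for *Vegfa*. Without the filter they were 0.00180 for *Gnas*, 0.0119 for *Lmcd1*, 0.0111 for *Nfatc1* and 0.00882 for *Vegfa*, and with all 16 libraries 0.00401 for *Lmcd1* and 0.00294 for *Nfatc1*. With 1 library left out the ranges were -0.23 to 0.0900 for *Aldoa*, -0.0685 to 0.11 for *Ctsd*, -0.12 to 0.19 for *Eno3*, -0.0855 to 0.30 for *Fbxo32*, -0.25 to 0.14 for *Glul*, -0.0595 to 0.0490 for *Gnas*, -0.0574 to 0.42 for *Insr*, -0.18 to 0.28 for *Lmcd1*, -0.0853 to 0.31 for *Nedd4*, -0.19 to 0.15 for *Nfatc1*, -0.0693 to 0.21 for *Pik3ca*, -0.0766 to 0.13 for *Rpl4*, -0.0356 to 0.16 for *Sqstm1*, -0.36 to 0.11 for *Tead1*, -0.96 to 0.32 for *Trim63* and -0.12 to 0.25 for *Vegfa*. Depth left levels under the 3-read limit unresolved.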

Other observations

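Called genes outside the lists and the naming rule were picked out after their values were seen, for their known roles, and no group of them was tested. Among those that rose, *Itga7*, the integrin subunit that binds muscle fibers to laminin, was at 121 ± 4.96 CPM in WT and 250 ± 40.1 CPM in LSD1-mKO (SD; edgeR adjusted p = 0.0155). *Tmod1*, a cap of the thin filament, was at 81.9 ± 11.9 CPM in WT and 172 ± 25.2 CPM in LSD1-mKO (SD; edgeR adjusted p = 0.0155). *Mamstr*, a coactivator of MEF2 factors, was at 8.83 ± 0.907 CPM in WT and 23.7 ± 5.17 CPM in LSD1-mKO (SD; edgeR adjusted p = 0.0129). *Gabbr1*, a subunit of the GABA-B receptor, was at 18.1 ± 2.93 CPM in WT and 32.7 ± 3.31 CPM in LSD1-mKO (SD; edgeR adjusted p = 0.0275). *Abat*, the transaminase that breaks down GABA, was at 13.3 ± 3.24 CPM in WT and 31.8 ± 7.26 CPM in LSD1-mKO (SD; edgeR adjusted p = 0.0314). Among those that fell, *Gpx3*, a secreted glutathione peroxidase, was at 259 ± 46.7 CPM in WT and 147 ± 24.3 CPM in LSD1-mKO (SD; edgeR adjusted p = 0.0483). *Oat*, ornithine aminotransferase, was at 236 ± 27.1 CPM in WT and 133 ± 21.8 CPM in LSD1-mKO (SD; edgeR adjusted p = 0.0359). *Maob*, a monoamine oxidase of the outer mitochondrial membrane, was at 25.9 ± 0.284 CPM in WT and 10.1 ± 2.96 CPM in LSD1-mKO (SD; edgeR adjusted p = 0.0187). *Ramp1*, a partner of the CGRP receptor, was at 84.5 ± 38.2 CPM in WT and 32.2 ± 8.78 CPM in LSD1-mKO (SD; edgeR adjusted p = 0.0406). *Aldoart1* and *Aldoart2*, retrocopies of *Aldoa*, fell by 1.49 and 2.06 on the log2 scale, and reads of such copies and of *Aldoa* may be shared, so their values are uncertain. *Itga7*, *Aldoart1* and *Aldoart2* had log2 fold changes of 1.01 to 1.13, -1.64 to -1.39 and -2.33 to -1.83 with 1 library left out, and lost their calls without WT replicates 1, 2 or 3 or LSD1-mKO replicate 2. *Tmod1* and *Mamstr* had log2 fold changes of 0.98 to 1.20 and 1.29 to 1.52 with 1 library left out, and lost their calls without WT replicates 1, 2 or 3. *Gabbr1* and *Maob* had log2 fold changes of 0.72 to 0.94 and -1.47 to -1.20 with 1 library left out, and lost their calls without WT replicates 1, 2 or 3 or LSD1-mKO replicates 2 or 3. *Abat* had a log2 fold change of 1.12 to 1.48 with 1 library left out, and lost its call without WT replicates 1, 2 or 3 or LSD1-mKO replicates 2, 3 or 4. *Oat* had a log2 fold change of -0.91 to -0.73 with 1 library left out, and lost its call without WT replicates 1, 2 or 3 or LSD1-mKO replicates 1, 2 or 3. *Gpx3* had a log2 fold change of -0.92 to -0.68 with 1 library left out, and lost its call without WT replicates 1, 2 or 3 or LSD1-mKO replicates 1, 2, 4 or 5. *Ramp1* had a log2 fold change of -1.56 to -0.96 with 1 library left out, and lost its call without WT replicates 1, 2 or 3 or LSD1-mKO replicates 1, 2, 3 or 4. *Tmod1*, *Mamstr*, *Oat* and *Gpx3* were not called with all 16 libraries in one fit.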
